A study of Homo sapiens with 5 samples.

Results

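The genes described here are 34 androgen-regulated and prostate-enriched genes, taken from a list of gene names. No value was used as a criterion, though the list was drawn up with earlier results of these arrays known. The list includes androgen-induced genes, genes of prostate epithelium and a few genes known to be repressed by androgen. Of the 34, 32 had a probe named for them among the 20044 named genes of the array, 31 had a probe detected on at least 1 array, and 24 were detected on all 5. Each gene is given by its brightest detected probe. RNA came from 5 cultures, each hybridised to 1 Illumina bead array. LNRII cells are LNCaP cells, a human prostate cancer line that responds to androgen, made to carry TGFBR2, the type II receptor of TGF-beta, from a lentivirus with a CMV promoter and puromycin selection. One LNRII culture received the ligand TGFB3 at 5 ng/ml for 3 days and a further LNRII culture received vehicle over those 3 days. The LNCaP cultures carried a lentiviral hairpin and were puromycin-selected: shFOXA1 with the TGF-beta receptor kinase inhibitor LY2157299 at 10 µM for 3 days, shFOXA1 without it, and shCtr, a control hairpin, all labelled day 10. The labels give no clone number for LNRII and do not say for each LNCaP array whether vehicle was added. All cultures were kept in serum-containing medium, and no added androgen is named.

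Androgens switch on genes for secretion, lipid and metal handling and membrane transport in prostate luminal cells. FOXA1 is a pioneer factor that opens chromatin at many androgen-responsive enhancers, so androgen-regulated genes depend on it to differing degrees. TGF-beta ligands signal through the type I and type II receptors to SMAD transcription factors. The study's title concerns repression of TGF-beta signalling by FOXA1, and these genes show how luminal prostate transcripts stood when either side was altered.

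Values are log2 normalized intensities, and signed values are log2 differences between arrays. Each condition had 1 array, so no test and no replicate error can be given. A gene is called higher or lower when it differed by at least 2-fold. The only error available is how far probes of one gene disagreed on its difference. It is given as the SD of 1 probe, which is the SD between a gene's 2 brightest probes divided by the square root of 2. That SD was 0.22 in the TGFB3 comparison and 0.17 in the knockdown comparison. It was 0.15 where LY2157299 was set against shFOXA1 alone and 0.18 where it was set against shCtr, and it holds no variation among cultures. Between 32.3% and 38.1% of 47306 probes were detected per array, fewest on the LNRII control array, where the lowest detected value (5.03) also lay above that of the other arrays (4.67 to 4.72). The luminal markers KLK3, KLK2, HOXB13, FOXA1, KRT8 and KRT18 were detected on all 5 arrays. Of 3 basal markers with a named probe, KRT14 was detected on the 3 LNCaP arrays and KRT15 with shFOXA1 alone, at log2 values of 5.35 or below, and in LNRII 0 of the 3 were detected. Of 8 fibroblast and smooth muscle markers COL1A1 alone was detected, in LNRII with TGFB3 (5.14) and with shFOXA1 (4.70), and of 5 neuroendocrine markers INSM1 alone, in LNRII with TGFB3 (4.82). Of 4 leukocyte markers PTPRC and CD3E were not detected, LYZ was detected with shFOXA1, and CD68 was detected on all arrays, at 8.44 with TGFB3 and 7.74 with vehicle in LNRII, and at 8.43 with shFOXA1 and LY2157299, 8.79 with shFOXA1 and 7.95 with shCtr. The part of these markers in the differences given here was not tested. FOXA1 itself read 11.30 with shFOXA1 and LY2157299, 11.26 with shFOXA1 and 11.82 with shCtr. It was thus lower on both shFOXA1 arrays than with shCtr, by 0.56 on the log2 scale with shFOXA1 alone, which is short of 2-fold.

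**Figure D1:**
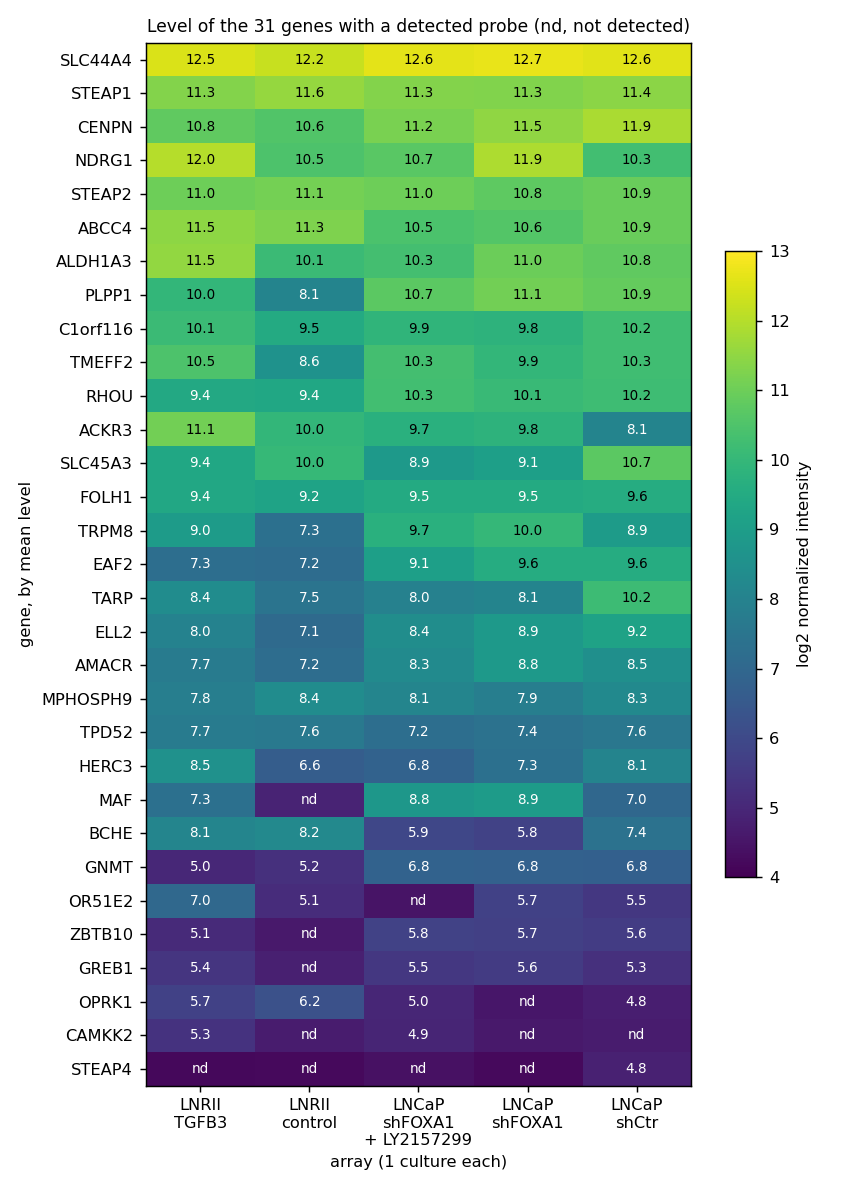
Log2 normalized intensity (colour and printed value) of the 31 genes with a detected probe, 1 row a gene, on the 5 arrays; nd marks a probe not detected on that array. Rows are to be read across, since probes of different genes are not on a common scale; the LNRII control column is darker than the LNRII TGFB3 column for MAF, PLPP1, HERC3, TMEFF2 and TRPM8, and SLC45A3, TARP and BCHE are darker with shFOXA1 than with shCtr.

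With TGFB3, 9 of the 30 genes measured in LNRII were at least 2-fold higher than in the vehicle culture and 0 were 2-fold lower. Over all 10711 genes measured in this comparison, 1.87% were 2-fold higher and 1.16% lower. The 9 were the transcription factor MAF, the receptors OR51E2 and ACKR3, the channel TRPM8, the membrane protein TMEFF2, the ubiquitin ligase HERC3, the enzymes PLPP1 and ALDH1A3, and the stress-response protein NDRG1. The median difference of the 30 was 0.27, where all genes had a median of -0.02. Of the 30, 23 lay above 0, as did 47.7% of all genes. The 23 include 4 genes not detected with vehicle, MAF, ZBTB10, CAMKK2 and GREB1. Those 4 were measured only because the TGFB3 array detected them, and their differences are bounds. Since fewer cells expressing a gene and less RNA per cell give the same reading in a culture, these values do not separate them.

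Among the membrane proteins, TRPM8, a cation channel opened by cold and menthol, read 8.96 with TGFB3 and 7.33 with vehicle, a difference of 1.62 (3.08-fold). Its other probe differed by 1.33. TMEFF2, a transmembrane protein with follistatin-like domains, read 10.48 with TGFB3 and 8.59 with vehicle (1.90). OR51E2, an olfactory receptor abundant in prostate, read 7.05 with TGFB3 and 5.13 with vehicle (1.92), and the vehicle value was close to the detection limit of that array. Without background correction its difference was 0.93 and no longer reached 2-fold, and with an offset of 50 it was 1.27. ACKR3, an atypical receptor of the chemokine CXCL12 that androgen is known to repress, read 11.08 with TGFB3 and 9.97 with vehicle (1.11).

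Among the enzymes, the probes of PLPP1 and of ALDH1A3 each gave a difference of at least 2-fold. PLPP1, a lipid phosphatase that removes phosphate from lysophosphatidic acid, read 9.95 with TGFB3 and 8.05 with vehicle, a difference of 1.90, and a further probe detected on both arrays gave 1.60. ALDH1A3, which makes retinoic acid from retinaldehyde, read 11.53 with TGFB3 and 10.14 with vehicle (1.39), and its other probe gave 1.43. Of the remaining enzymes, AMACR, a racemase of branched-chain fatty acid oxidation used as a prostate cancer marker, differed by 0.52 and, on its other probes, by 0.37 and 0.40. GNMT, a glycine methyltransferase, stood at -0.23 and BCHE, butyrylcholinesterase, at -0.14. Neither reached 2-fold.

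The regulators differed among themselves. MAF, a basic leucine zipper factor, read 7.31 with TGFB3 and was not detected with vehicle, a difference of at least 2.28. That size depended on the background: it was at least 1.14 without background correction, where TMEFF2 had 1.72 and PLPP1 1.65, and at least 1.53 with an offset of 50. A further MAF probe was not detected on either LNRII array, and the mean over both probes differed by at least 0.80. That value is a bound, since the vehicle side was raised to the lowest detected value of its array (5.03). The bound lies short of 2-fold, so MAF was not called with the mean of probes, and the full size of that difference is unknown. HERC3 read 8.55 with TGFB3 and 6.64 with vehicle (1.91). NDRG1, a cytoplasmic protein induced by hypoxia, stress and androgen, read 12.00 with TGFB3 and 10.50 with vehicle (1.49). The elongation factor ELL2 (7.98 with TGFB3, 7.12 with vehicle) and TARP, a prostate transcript from the T-cell receptor gamma locus (8.39 with TGFB3, 7.45 with vehicle), stopped short of 2-fold at 0.86 and 0.94. With arrays scaled to a common median in place of quantile normalization both passed 2-fold, but all genes then had a median of 0.22, and relative to that shift 9 members were higher and 0 lower. In that scaling 4.06% of all genes were higher and 0.383% lower. Sequences of the T-cell receptor gamma constant segments are closely related, so the TARP probe may read more than 1 of them.

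**Figure D2:**
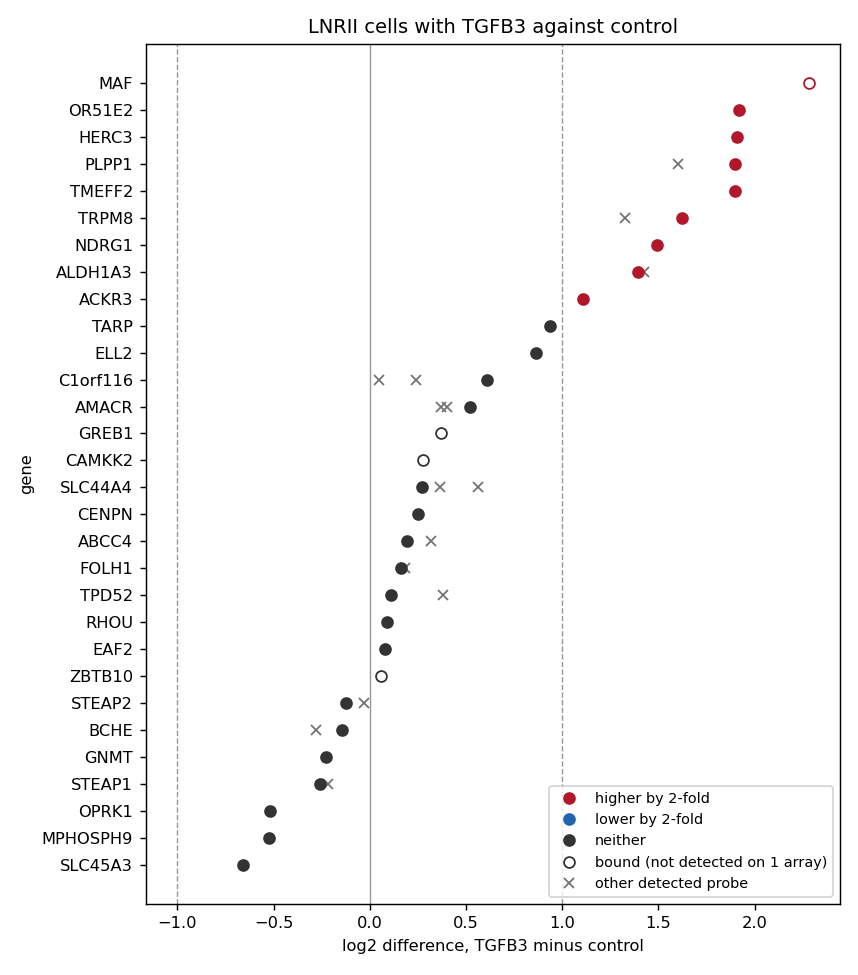
Log2 difference between LNRII cells with TGFB3 and with vehicle for 30 genes (x axis; circles, brightest probe; open circles, bounds; crosses, other probes detected on both arrays), with dashed lines at 2-fold. The 9 genes right of the line run from ACKR3 at 1.11 to MAF at 2.28 or more, and the lowest gene is SLC45A3 at -0.66.

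The prostate membrane antigens and transporters were within 2-fold with TGFB3. STEAP1, a membrane hemoprotein and antibody target, stood at -0.26 and its relative STEAP2, a metal reductase, at -0.12. FOLH1, prostate-specific membrane antigen, stood at 0.16 on its brighter probe and 0.18 on the other. The drug and prostaglandin exporter ABCC4 stood at 0.19, the choline transporter-like protein SLC44A4 at 0.27 and the tumour protein TPD52 at 0.11. On the negative side stood SLC45A3, prostein, at -0.66, MPHOSPH9, a mitotic phosphoprotein, at -0.52, and OPRK1, the kappa opioid receptor, which androgen is known to repress, at -0.52. All of these differences were smaller than 2-fold.

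The LNRII control culture was the low one for most of these genes. Of the 24 genes detected on all arrays, 14 had their lowest value on the LNRII control array and 4 their highest. Among all 9025 genes detected on all arrays, 27.8% were lowest and 29.1% highest there. PLPP1 read 9.95 in LNRII with TGFB3, 8.05 in LNRII with vehicle and 10.88 in LNCaP with shCtr. TMEFF2 and TRPM8, at 10.48 and 8.96 in LNRII with TGFB3 and 8.59 and 7.33 in LNRII with vehicle, read 10.26 and 8.92 in LNCaP with shCtr. HERC3 read 8.55 in LNRII with TGFB3, 6.64 in LNRII with vehicle and 8.06 in LNCaP with shCtr. In these genes the LNRII culture with TGFB3 lay nearer to LNCaP with shCtr than the LNRII vehicle culture did. MAF read 7.31 in LNRII with TGFB3 and 7.01 with shCtr and was not detected with vehicle. The rest of the 9 genes higher with TGFB3 did not share this. Against shCtr, OR51E2 stood at 1.59 with TGFB3 and -0.33 with vehicle, and ALDH1A3 at 0.72 and -0.67. ACKR3 had the opposite arrangement, with 11.08 and 9.97 in LNRII with and without TGFB3 and 8.08 in LNCaP with shCtr, and NDRG1 read 12.00 and 10.50 in LNRII with and without TGFB3 and 10.28 in LNCaP with shCtr. Set against LNCaP with shCtr, the vehicle LNRII culture had 11 of 30 genes lower and 2 higher, where all genes gave 3.07% and 2.18%. The LNRII culture with TGFB3 had 6 of 31 lower and 3 higher, where all genes gave 2.53% and 3.06%. Of the 30 genes measured for the vehicle culture, 4 were not detected there: MAF, ZBTB10, GREB1 and STEAP4. They were measured only because the shCtr array detected them. MAF, at -1.98 or lower, is among the 11, and STEAP4 gave no direction. The pairing of LNRII with TGFB3 and LNCaP with shCtr was chosen after the data were seen. The first of these comparisons shares its vehicle array with the TGFB3 comparison and both share the shCtr array. FOLH1 was read unevenly between the lines, at -0.35 on its brighter probe and -1.05 on the other for LNRII with vehicle against LNCaP with shCtr. Of the 6 luminal markers measured in that pairing, KLK3 (-1.57), KLK2 (-1.03) and KRT8 were 2-fold lower as well. The other 3 were within 2-fold, among them FOXA1 (-0.01) and HOXB13 (-0.03). The lines differ in the receptor virus, the hairpin and the time in culture, which cannot be told apart, and the share of the vehicle array in the TGFB3 differences was not tested.

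EAF2, GNMT, ELL2 and CENPN were 2-fold lower in both LNRII cultures than in LNCaP with shCtr, and within 2-fold inside each line. Against shCtr, ELL2 stood at -2.06 in LNRII with vehicle and -1.20 with TGFB3, and CENPN at -1.30 and -1.06. EAF2, an androgen-induced partner of the ELL elongation factors, read 7.26 with TGFB3 and 7.18 with vehicle in LNRII. In LNCaP it read 9.09 with shFOXA1 and LY2157299, 9.57 with shFOXA1 and 9.56 with shCtr. GNMT read 5.01 and 5.24 in LNRII with and without TGFB3 and between 6.76 and 6.84 on the LNCaP arrays. Both LNRII values were close to the detection limits of their arrays (4.72 and 5.03). Before background correction its bead intensities were 107.8 and 106.4 there and 188.7 in LNCaP with shCtr, so the size of the GNMT gap depends on that correction.

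With the FOXA1 hairpin, 3 of the 30 genes measured were at least 2-fold lower than with shCtr and 4 were 2-fold higher. Over all 11132 genes, 0.377% were lower and 1.11% higher. The lower genes were TARP, SLC45A3 and BCHE, and the higher genes MAF, ACKR3, NDRG1 and TRPM8. The median of the 30 was -0.08, near the -0.01 of all genes. With arrays scaled to a common median, 0.494% of all genes were lower and 0.871% higher and their median was -0.13; relative to that shift the members again counted 3 lower and 4 higher.

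The 250 bases before the annotated start are shown for genes at both ends of this comparison and for HERC3, so that the promoters can be read beside the values. No promoter sequence was available for TARP, ACKR3 and NDRG1. The sequences are RefSeq's for GRCh38.p14, written along the gene's strand up to the base before the start, with capitals marking CAGAC or its reverse complement GTCTG, letters that SMAD proteins bind.
SLC45A3, chr1:205680510-205680759, minus strand: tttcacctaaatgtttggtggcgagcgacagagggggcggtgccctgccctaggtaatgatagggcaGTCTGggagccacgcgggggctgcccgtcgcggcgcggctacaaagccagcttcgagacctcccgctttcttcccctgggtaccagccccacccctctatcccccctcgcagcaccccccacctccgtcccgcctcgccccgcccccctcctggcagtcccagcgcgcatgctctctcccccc
BCHE, chr3:165837424-165837673, minus strand: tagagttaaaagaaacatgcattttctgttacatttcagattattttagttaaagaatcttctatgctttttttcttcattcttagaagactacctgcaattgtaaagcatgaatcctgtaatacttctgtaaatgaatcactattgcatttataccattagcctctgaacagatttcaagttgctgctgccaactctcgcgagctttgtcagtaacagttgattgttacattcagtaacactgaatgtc
MAF, chr16:79600738-79600987, minus strand: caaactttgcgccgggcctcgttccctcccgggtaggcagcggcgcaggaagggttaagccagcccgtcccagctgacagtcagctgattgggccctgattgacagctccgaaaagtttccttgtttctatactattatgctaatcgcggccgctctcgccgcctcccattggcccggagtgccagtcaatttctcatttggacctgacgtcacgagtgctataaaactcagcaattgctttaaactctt
TRPM8, chr2:233917123-233917372, plus strand: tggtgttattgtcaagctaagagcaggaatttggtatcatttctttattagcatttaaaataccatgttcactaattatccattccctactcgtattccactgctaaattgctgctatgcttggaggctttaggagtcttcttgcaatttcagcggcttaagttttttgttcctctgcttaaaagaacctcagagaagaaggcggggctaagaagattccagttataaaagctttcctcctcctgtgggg
HERC3, chr4:88523593-88523842, plus strand: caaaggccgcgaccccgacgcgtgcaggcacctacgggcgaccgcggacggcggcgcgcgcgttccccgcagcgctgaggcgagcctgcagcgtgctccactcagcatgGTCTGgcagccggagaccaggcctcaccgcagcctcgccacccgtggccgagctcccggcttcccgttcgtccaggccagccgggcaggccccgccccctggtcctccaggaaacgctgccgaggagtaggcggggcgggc

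These promoters differ widely in composition. G and C make up 33.2% of the BCHE window and 40.0% of the TRPM8 window, against 69.2% for SLC45A3 and 75.6% for HERC3, with a median of 57.6% over 27305 promoters. The hexamer AGAACA (reverse TGTTCT) of the androgen response element was in 0 of the 21 member promoters with an available sequence and in 12.4% of all promoters. The forkhead letters TGTTTAC (reverse GTAAACA) were in 0 of 21 and in 3.01% of all. CAGAC or GTCTG was in 8 of 21, among them SLC45A3 and HERC3, and in 37.9% of all. A match or its absence in this window says nothing of binding, and enhancers farther away were not examined. None of these motifs, on either strand, contains another.

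SLC45A3, a prostate-specific transporter-like protein whose promoter drives gene fusions in prostate cancer, read 8.88 with shFOXA1 and LY2157299, 9.07 with shFOXA1 and 10.75 with shCtr. Both knockdown arrays lay below shCtr, and shFOXA1 was 3.18-fold lower (-1.67). TARP read 7.97 with shFOXA1 and LY2157299, 8.08 with shFOXA1 and 10.17 with shCtr, and was 4.26-fold lower with shFOXA1 (-2.09), placing it 7 from the bottom of 11132 genes. BCHE, an esterase of choline esters, read 5.92 with shFOXA1 and LY2157299, 5.78 with shFOXA1 and 7.40 with shCtr (-1.62 for shFOXA1 against shCtr). Its other probe, at 5.24 with shFOXA1 and 6.40 with shCtr, gave -1.16. Without background correction BCHE stood at -0.92, short of 2-fold. HERC3, at 7.32 with shFOXA1 and 8.06 with shCtr, was lower by 0.74 on the log2 scale and did not reach 2-fold.

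On the higher side, MAF read 8.95 with shFOXA1 and 7.01 with shCtr (1.94, 3.83-fold). A further MAF probe read 6.09 with shFOXA1 and was not detected with shCtr, a difference of at least 1.41. ACKR3 read 9.81 with shFOXA1 and 8.08 with shCtr (1.74), and NDRG1 11.88 with shFOXA1 and 10.28 with shCtr (1.61). TRPM8 read 9.98 with shFOXA1 and 8.92 with shCtr, a difference of 1.06 on its brighter probe and 1.30 on the other. TRPM8 therefore lay close to the threshold, and fell short of it without background correction (0.96) and with arrays scaled to a common median (0.91).

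**Figure D3:**
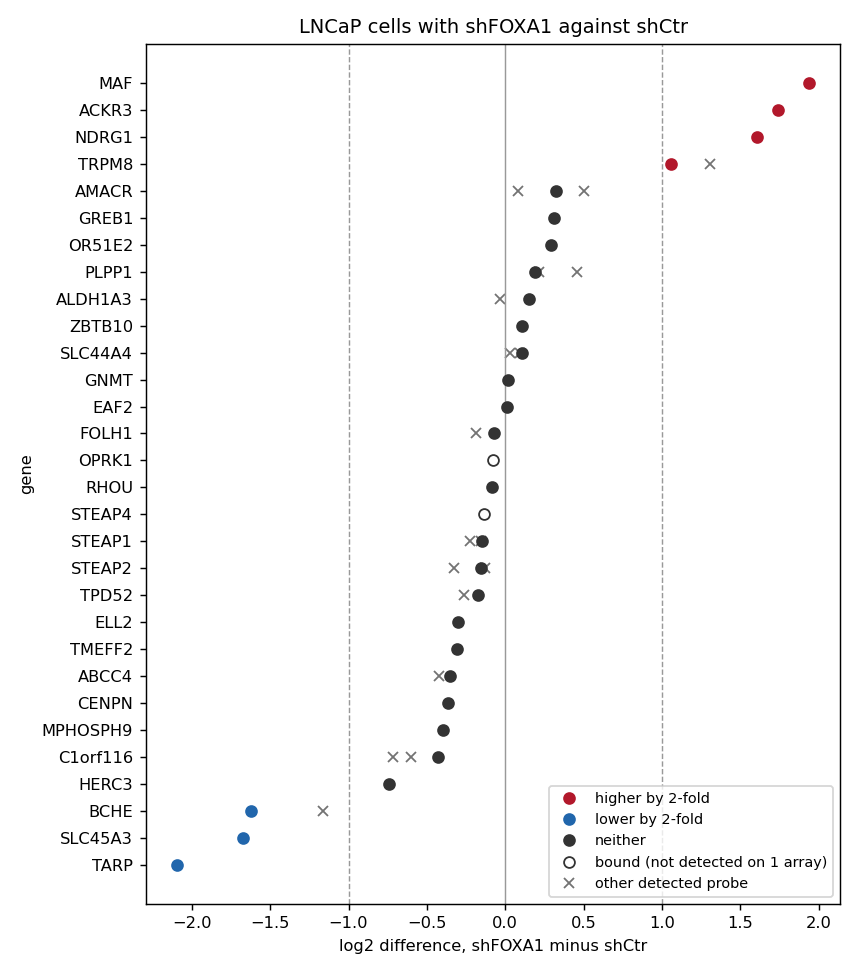
Log2 difference between LNCaP cells with shFOXA1 and with shCtr for 30 genes (x axis; circles, brightest probe; open circles, bounds; crosses, other probes detected on both arrays), with dashed lines at 2-fold. MAF, ACKR3, NDRG1 and TRPM8 lie right of the upper line, BCHE, SLC45A3 and TARP left of the lower line, and the other 23 genes between -0.74 and 0.32.

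The other 23 genes stayed within 2-fold after knockdown. STEAP1 stood at -0.15, STEAP2 at -0.16, FOLH1 at -0.07, SLC44A4 at 0.10, RHOU, a small GTPase, at -0.08 and TPD52 at -0.18. C1orf116, a cytoplasmic protein induced by androgen, stood at -0.43 and, on its other probes, at -0.71 and -0.60. ABCC4 stood at -0.36 and -0.42 on its probes, ELL2 at -0.30, and CENPN, a centromere protein, at -0.37. Some of these differences exceed the probe SD of 0.17, and how they compare with variation among cultures is unknown. AMACR stood at 0.32, and at 0.50 and 0.08 on its other probes, so the probes disagreed by more than the difference itself.

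TGFB3 in LNRII and FOXA1 knockdown in LNCaP share no array, and their values for the same genes can be set side by side. All 4 genes higher after knockdown were among the 9 higher with TGFB3, which is 44.4% of the 9. Over all genes, 38 were higher in both, 30.6% of the 124 higher after knockdown and 19.0% of the 200 higher with TGFB3. MAF differed by at least 2.28 with TGFB3 and by 1.94 after knockdown, NDRG1 by 1.49 and 1.61, ACKR3 by 1.11 and 1.74 and TRPM8 by 1.62 and 1.06. PLPP1 (1.90 and 0.19), OR51E2 (1.92 and 0.29), ALDH1A3 (1.39 and 0.15) and TMEFF2 (1.90 and -0.31) were 2-fold higher with TGFB3 alone, and HERC3 stood at 1.91 and -0.74. TARP stood at 0.94 with TGFB3 and -2.09 after knockdown. Of 29 genes measured in both comparisons, 10 lay above 0 with TGFB3 and below 0 after knockdown (34.5%, against 19.9% of all genes) and 12 above 0 in both (41.4%, against 29.3%). Below 0 in both lay 6 (20.7%, against 32.8%), and 1 lay below 0 with TGFB3 and above 0 after knockdown (3.4%, against 17.7%). Whether the TGFB3 and knockdown values of a gene differ could not be tested with 1 array on each side.

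**Figure D4:**
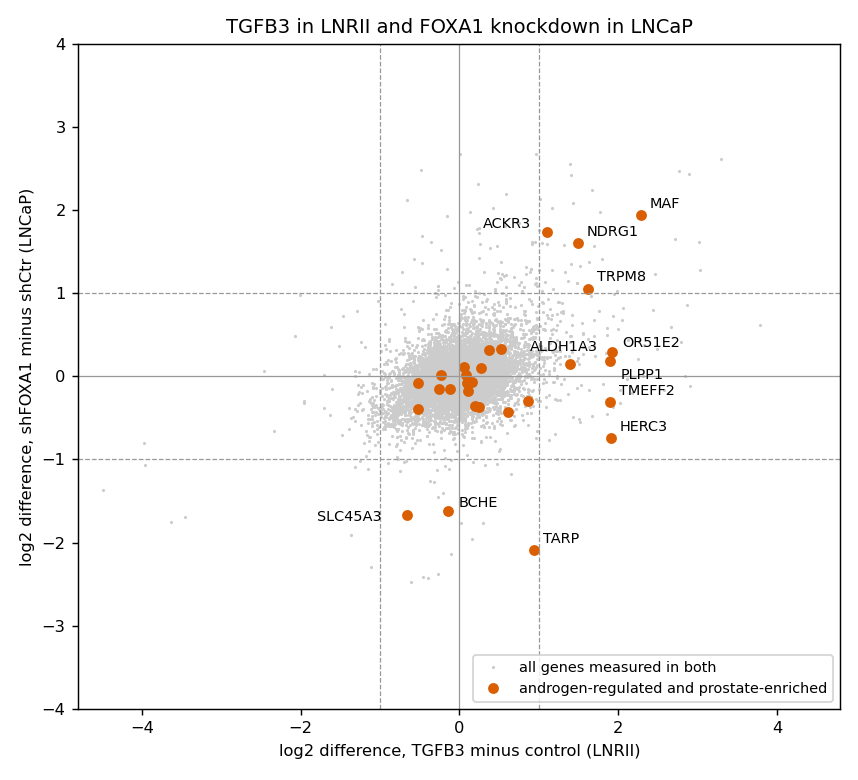
Log2 difference with TGFB3 in LNRII (x axis) against log2 difference with shFOXA1 in LNCaP (y axis) for all genes measured in both comparisons (grey) and for 29 of the androgen-regulated and prostate-enriched genes (orange; names where either difference is 2-fold), with dashed lines at 2-fold. MAF, NDRG1, ACKR3 and TRPM8 lie in the upper right, and SLC45A3, BCHE and TARP at the bottom; for MAF the x value is a lower bound.

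LY2157299 in the knockdown cells left most of these genes within 2-fold of shFOXA1 alone. Of 30 genes, 2 were lower, NDRG1 and OR51E2, and 0 higher, where 0.209% of 11002 genes were lower and 0.0545% higher. The median was -0.12, where all genes had 0.01. NDRG1 read 10.70 with shFOXA1 and LY2157299, 11.88 with shFOXA1 and 10.28 with shCtr, so the array with inhibitor lay close to shCtr and 2.26-fold below shFOXA1 (-1.18). OR51E2 was not detected with LY2157299 and read 5.75 with shFOXA1 and 5.46 with shCtr, a difference from shFOXA1 of -1.04 or lower. These are low readings, and the OR51E2 difference was -0.36 or lower without background correction and -1.89 or lower in the authors' processed table, and with an offset of 50 it was also short of 2-fold.

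The other genes that were 2-fold apart after knockdown stayed within 2-fold with the inhibitor. MAF read 8.77 with shFOXA1 and LY2157299 and 8.95 with shFOXA1 (-0.18), and its dimmer probe differed by -0.54. ACKR3 read 9.71 with shFOXA1 and LY2157299 and 9.81 with shFOXA1 (-0.10). TRPM8 read 9.72 with shFOXA1 and LY2157299 and 9.98 with shFOXA1 (-0.26). SLC45A3 stood at -0.19, TARP at -0.11 and BCHE at 0.14. Larger shifts that stayed within 2-fold were those of ALDH1A3 (-0.64, and -0.59 on its other probe), AMACR (-0.50, and -0.35 and -0.14 on the others), HERC3 (-0.49), EAF2 (-0.48), ELL2 (-0.46) and, upward, TMEFF2 (0.35). SLC44A4 stood at -0.06 on its brightest probe and at -0.43 and -0.40 on the others. The comparison shares the shFOXA1 array with the knockdown comparison, so a high or low reading there enters both with opposite sign.

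Set against shCtr, cells with knockdown and LY2157299 had 4 of 31 genes lower and 2 higher, where 0.517% of 11019 genes were lower and 0.917% higher. TARP was 4.60-fold lower, SLC45A3 3.64-fold, BCHE 2.79-fold and HERC3 2.35-fold, and ACKR3 was 3.10-fold and MAF 3.37-fold higher. The dimmer MAF probe differed by at least 0.87. NDRG1 stood at 0.43, and TRPM8 at 0.79 on its brighter probe and 1.04 on the other. HERC3 read 6.83 with shFOXA1 and LY2157299, 7.32 with shFOXA1 and 8.06 with shCtr. Its differences of -1.23 here and -0.74 for shFOXA1 against shCtr use the same shCtr array. Without background correction HERC3 (-0.87) and BCHE (-0.86) did not reach 2-fold. With arrays scaled to a common median 0.69% of all genes were lower and 0.78% higher, all genes had a median of -0.12, and relative to that shift the members counted 4 lower and 2 higher.

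**Figure D5:**
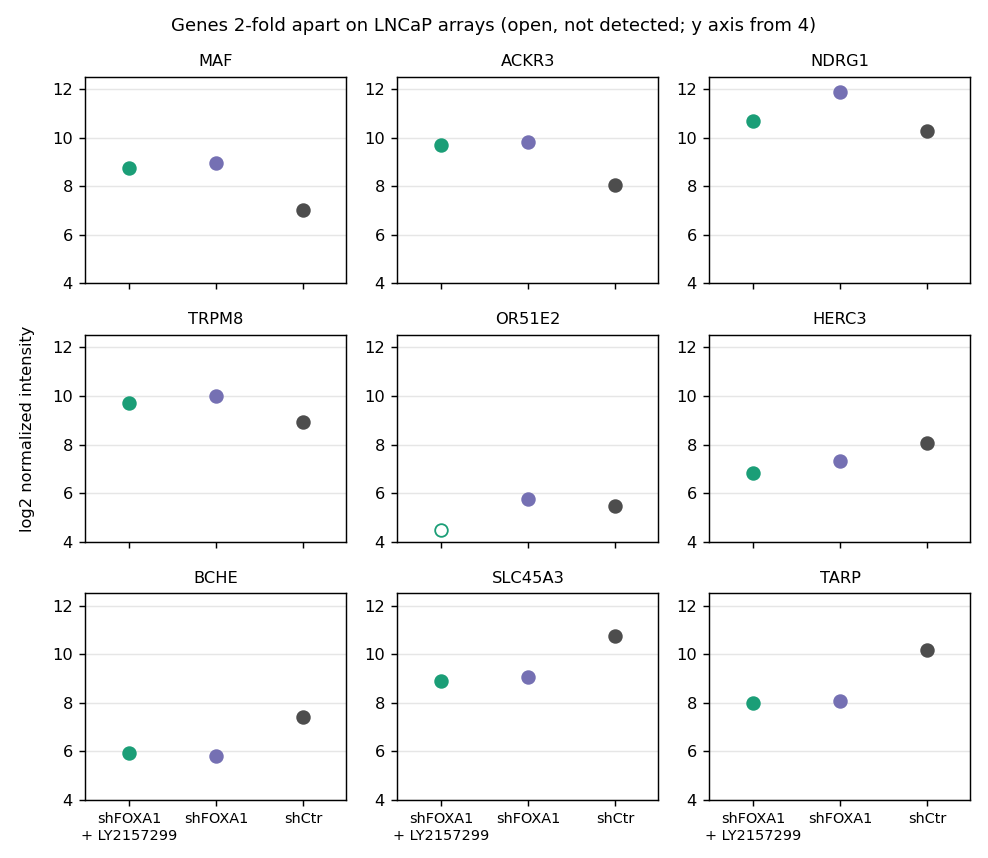
Log2 normalized intensity of 9 genes on the LNCaP arrays, from left to right shFOXA1 with LY2157299, shFOXA1 and shCtr, 1 culture each, on y axes starting at 4; the open circle marks a probe not detected. MAF and ACKR3 are high and BCHE, SLC45A3 and TARP low on both shFOXA1 arrays, while NDRG1 is high with shFOXA1 alone.

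Cofactors of androgen signalling and other androgen response genes were counted for comparison from lists outside the 34. The shares and medians of all genes given above for each comparison hold here too: 1.87% higher, 1.16% lower and a median of -0.02 with TGFB3, and 1.11%, 0.377% and -0.01 after knockdown. With TGFB3, 1 of 17 cofactor genes was higher and 0 lower (median 0.11), and 7 of 78 other androgen response genes were higher and 1 lower (median 0.15). The cofactor was ZMIZ1, which is also among the 7, and the lower gene was INSIG1, both named after their values were seen. TMPRSS2, an androgen-induced membrane protease and another of the 7, read 11.96 with TGFB3 and 10.95 with vehicle (1.01). KLK3 (0.83), FKBP5 (0.64) and KLK2 (0.46) stayed short of 2-fold with TGFB3. After knockdown 0 of 18 cofactor genes were 2-fold apart (median 0.02). Of 77 other androgen response genes 3 were lower and 1 higher (median -0.02): ELK4, HPGD and INPP4B below and SGK1 above, named after their values were seen. FKBP5, a chaperone and androgen and glucocorticoid target, read 10.86 with shFOXA1 and LY2157299, 11.04 with shFOXA1 and 10.19 with shCtr. For shFOXA1 against shCtr it stood at 0.85, KLK2 at 0.69, KLK3 at 0.08 and TMPRSS2 at -0.15. With LY2157299 against shFOXA1, 1 of 76 was lower, AZGP1, named likewise, and 0 higher, with a median of -0.10, where 0.209% and 0.0545% of all genes were lower and higher and their median was 0.01. Of the 76, 23 lay above 0, as did 51.6% of all genes. GATA2, a zinc finger transcription factor, read 7.61 with TGFB3 and 7.74 with vehicle in LNRII, and between 8.64 and 8.83 on the LNCaP arrays.

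Several genes of the list gave little or no reading. STEAP4, an androgen-induced metal reductase, was detected with shCtr alone, at 4.81, close to the detection limit of that array. CAMKK2, a calcium-dependent kinase, was detected with TGFB3 (5.31) and with shFOXA1 and LY2157299 (4.94) but not on the remaining arrays. GREB1, a hormone receptor cofactor, read between 5.26 and 5.58 on 4 arrays and was not detected in LNRII with vehicle, and ZBTB10, a zinc finger repressor, read between 5.09 and 5.78 on those 4. OPRK1 read 5.73 with TGFB3 and 6.25 with vehicle in LNRII, and in LNCaP 4.97 with shFOXA1 and LY2157299 and 4.76 with shCtr, without detection with shFOXA1. PART1, a prostate noncoding RNA, had 1 named probe that was not detected on any array. ADAM7 and SORD had no named probe and are not analysed here.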

How the data were processed

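The deposited scanner table holds the mean bead intensity of 47306 probes on 5 arrays, not normalized per the file headers. Beside each intensity stands its deposited detection p-value. GenomeStudio was used, per the submitters' processing notes. The authors' processed intensity table, for which no further steps are stated, served as an alternative. It is linear with 25.3% negative values, its column medians are 4.7 (LNRII) and 4.5 (LNCaP), it ranks probes as the scanner table does, and its background method remains unknown. Probe names come from the 2016 platform annotation: 30107 probes have 1 symbol, 8 several and 17191 none. Entrez identifiers of all 32 members with a probe matched RefSeq genes.

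Values were computed with limma 3.58.1 (R 4.3.3, neqc, offset 16, quantile normalization over 5 arrays, log2). A probe was detected at p below 0.01. Comparisons used genes detected on either array. An undetected side was raised to the lowest detected value of its array, which makes the difference a bound. Calls need 2-fold. With 1 array a group no test was possible. Named genes are the members, 9 fixed genes and the cell type markers; others are said to be named after their values were seen. The 8 alternatives change background correction, source table, normalization, offset, detection and probe choice. Members, lists and tests were chosen with earlier results of these data known. Tables and plots used matplotlib 3.10.9, numpy 2.4.6 and pandas 2.3.3 under Python 3.11.15.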

Additional observations from a re-analysis of the deposited data

How the results depend on the processing

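Counts and medians of the 34 genes were recomputed under 8 alternatives. Of 968 recomputed gene differences, 853 moved by less than the probe SD, 115 moved more and 0 of those called changed sign. The counts that moved by more than 1.5 times were those of lower genes: with LY2157299 against shFOXA1, 1 in place of 2 without background correction and with an offset of 50, and with LY2157299 against shCtr, 2 in place of 4 without background correction. Set against the LNCaP shCtr array in place of the LNRII control, an alternative added after seeing the data, LNRII with TGFB3 had 3 genes higher and 6 lower with a median of -0.086, in place of 9, 0 and 0.27. The TGFB3 median also reached 0.47 at a detection p below 0.05 and 0.48 with median scaling. Median scaling also took the shFOXA1 median to -0.195 and the median of LY2157299 against shCtr to -0.273, in place of -0.082 and -0.132. It moved the medians of all genes too, to 0.22, -0.13 and -0.12. Relative to all genes, the members' medians were 0.26, -0.065 and -0.156 with median scaling, in place of 0.29, -0.069 and -0.128. The shFOXA1 median was -0.052 without background correction. Shares of all genes called depended more on the setting: without background correction 0.803% were higher and 0.289% lower with TGFB3, 0.44% and 0.135% with shFOXA1, 0.00909% and 0.0455% with LY2157299 against shFOXA1, and 0.327% and 0.172% against shCtr, while the authors' processed table gave 3.17% and 3.12% with TGFB3, 2.13% and 1.14% with shFOXA1, 0.382% and 0.664% with LY2157299 against shFOXA1, and 1.96% and 1.33% against shCtr. No paired analysis was possible because each group has 1 array, and no array could be left out. Low signal over background limits STEAP4, CAMKK2, GREB1, ZBTB10, OPRK1 and OR51E2, and also GNMT in LNRII.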
